A study of Homo sapiens with 4 samples.

Results

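The 5 steroid hormone receptor genes described here are *PGR*, *ESR1*, *ESR2*, *NR3C1* and *NR3C2*, taken by gene symbol from the 23287 symbols in the deposited RNA-seq tables. They account for 21 of the 41138 transcripts listed. The receptors were measured in T47D cells, a human breast cancer cell line established as hormone responsive, grown in RPMI with fetal calf serum and moved to charcoal-stripped serum, which is depleted of steroids, before treatment. The RNA-seq data comprise 1 library from cells given 10 nM of the synthetic progestin R5020 for 3 h and 1 from cells given the vehicle ethanol (EtOH) for 3 h. Another library held chromatin precipitated with an antibody against the progesterone receptor (PR) after 10 nM R5020 for 1 h. Per the paper, the cells for chromatin spent longer in the stripped serum before harvest than the cells for RNA. With 1 library per condition no difference below has a replicate check within these libraries. No p-value is given, and a "lower" or "higher" value compares these libraries. Separately, the paper measured some of the genes named below by RT-qPCR (quantitative PCR after reverse transcription) in biological replicates. It reports *FOXA1* as lower and a *TSC22D3* variant as higher after R5020.

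Steroid hormone receptors are ligand-activated transcription factors of the nuclear receptor family. Without hormone, the PR, the glucocorticoid receptor and the mineralocorticoid receptor are held by HSP90 and its co-chaperones, and the bound hormone releases them to DNA. These receptors share a DNA element made of inverted 6-base half-sites with a 3-base spacer, whereas the estrogen receptors bind a different half-site. In breast epithelium *PGR* is itself a classical target of the estrogen receptor α, the product of *ESR1*, and clinical tumours are classed by both receptors. A progestin can also occupy the glucocorticoid and mineralocorticoid receptors to a degree that depends on the compound.

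Expression is given as FPKM, the fragment abundance normalised to transcript length and library size that the authors estimated with Cufflinks, so levels of different genes are compared per length. The FPKM of a gene is the sum over its transcripts, and its change is the log2 ratio of R5020 to EtOH after adding 1 to both. The depth behind the values was derived from the deposited coverage and transcript length, for reads of 50 bases. It corresponded to 27855 reads for *PGR* in EtOH and 17110 in R5020, to 9505 and 5858 for *ESR1*, and to 1487 and 1123 for *NR3C1*. For *NR3C2* it was 322 and 605 reads and for *ESR2* only 28 and 37. The luminal markers *KRT19*, *MUC1*, *EPCAM* and *CDH1* were between 55.6 and 608 FPKM in both libraries, whereas the basal markers *KRT5*, *KRT14* and *TP63* did not exceed 0.232. *PTPRC*, the pan-leukocyte marker, was at most 0.0135. Of the fibroblast markers, *COL1A1* had 5.12 FPKM in EtOH and 3.31 in R5020 and *COL1A2* is listed at 0. *KRT8* and *KRT18* are listed at 0 in EtOH under a status of failed estimation, with 285 and 174 FPKM in R5020, so a listed 0 in these tables can be a failed estimate. In bulk RNA, fewer cells expressing a gene and less RNA per cell cannot be told apart.

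The receptor genes covered a wide range and kept the same order in both libraries. *PGR*, the progesterone receptor gene, was highest, with 23.7 FPKM in EtOH and 15.3 in R5020. *ESR1*, which encodes estrogen receptor α, followed with 17.2 and 10.9. Both therefore lay well above the remaining members, at ranks 1122 and 1655 of the 23287 symbols in EtOH. *NR3C1*, the glucocorticoid receptor gene, stood at 2.41 FPKM in EtOH and 1.94 in R5020. *NR3C2*, the mineralocorticoid receptor gene, had 0.594 FPKM in EtOH and 1.15 in R5020. *ESR2*, which encodes estrogen receptor β, was the lowest with 0.127 and 0.161. It did not reach an FPKM of 1 in either library and was left out of the counts of changed genes, which leaves 4 of the 5 members.

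Relative to one another, the receptors were closest in the progesterone and estrogen receptor pair. The ratio of *PGR* to *ESR1* was 1.38 in EtOH and 1.41 in R5020. In contrast, *PGR* exceeded *NR3C1* by 9.84 times in EtOH and by 7.86 times in R5020. The ratio of *NR3C1* to *NR3C2* was 4.06 in EtOH and 1.69 in R5020. Of the summed FPKM of the 5 genes, 44.01 in EtOH and 29.4 in R5020, *PGR* held 53.9% and 52.0% and *ESR1* 39.0% and 36.95%. *NR3C2* held 1.35% of the sum in EtOH and 3.91% in R5020. With 1 library per condition there is no spread against which neighbours in this order could be told apart.

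*PGR* and *ESR1* were lower after the progestin. *PGR* was 1.52-fold lower in R5020 than in EtOH, a log2 fold change of −0.60, and *ESR1* was 1.53-fold lower, a log2 fold change of −0.61. Both were just past the threshold of 1.5-fold. *NR3C1* was also lower but remained inside the threshold, with a log2 fold change of −0.21. *NR3C2* pointed the other way, with a log2 fold change of 0.43, which is 1.35-fold on this scale. Because the added 1 is as large as the level itself, the change of *NR3C2* is understated, and its plain log2 ratio was 0.95. *ESR2* had a log2 fold change of 0.04 at a level where few reads support either value.

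Thus 2 of the 4 members that could be counted were at least 1.5-fold lower, against 4.14% of the 11018 genes with an FPKM of 1 or more in either library. None of the 4 was at least 1.5-fold higher, against 7.67% of these genes. This count rests on the added 1: with 0.1 added in its place, *NR3C2* had a log2 fold change of 0.85 and passed. The median log2 fold change over all 11018 genes was 0.01. Only 3.87% of them had a lower value than *PGR* and 3.72% a lower value than *ESR1*. *NR3C1* was exceeded downwards by 20.8%, and *NR3C2* was higher than 88.8% of the genes. However, *NR3C2* reached an FPKM of 1 only in R5020, so the filter itself favoured an upward value. Its place among these genes is therefore no support for a change. The count of lower members rests on how transcripts are added: when the highest transcript stood for the gene, *PGR* had a log2 fold change of −0.44 and *ESR1* alone passed.

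**Figure D1:**
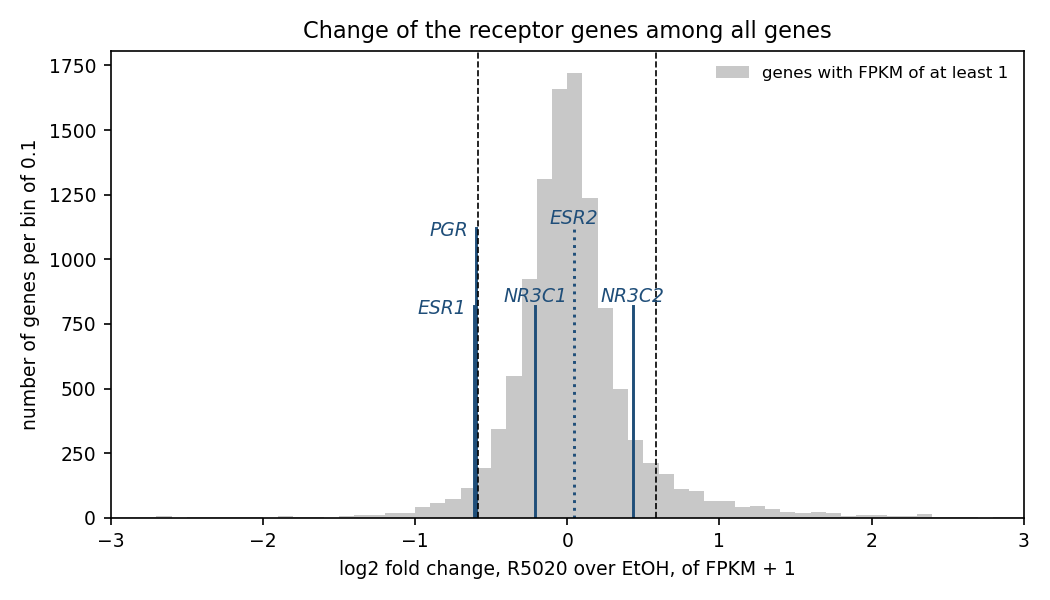
Histogram of the log2 fold change (R5020 over EtOH, of FPKM + 1) of the 11018 genes with an FPKM of 1 or more in either library, with the number of genes per bin on the y axis; vertical lines mark the receptor genes (dotted for *ESR2*, which is below that level) and dashed lines 1.5-fold. *PGR* and *ESR1* lie together just beyond the lower threshold at −0.60 and −0.61, *NR3C1* at −0.21 and *NR3C2* at 0.43.

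*PGR* lies on the minus strand of chromosome 11 (hg19, 100900355 to 101000544) and is listed with a pair of transcripts that differ in their start. The longer transcript, NM_000926, contains the first start codon and encodes PR-B. The shorter, NM_001202474, begins 750 bases further downstream and encodes PR-A, the isoform without the N-terminal extension of PR-B. The longer transcript had 2.69 FPKM in EtOH, with an interval of 2.5 to 2.89 given by the authors. In R5020 it is listed at 0 under a status of OK, with an interval of 0 to 0.00292. The shorter had 21.02 FPKM in EtOH (20.8 to 21.8) and 15.3 in R5020 (14.96 to 15.9). The summed level of *PGR* was therefore almost entirely assigned to the PR-A transcript, with 88.6% of the FPKM in EtOH and 100% in R5020.

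Several properties of the tables limit the split between the *PGR* transcripts. The transcripts share all bases but the 750 at the 5′ end of the longer, so only reads in that stretch tell the longer transcript apart. The shorter transcript carried the status LOWDATA instead of OK in both libraries, as did 392 transcripts in each. A listed 0, under any status, is not rare. In EtOH, 2161 transcripts of genes with several transcripts had a level within 1.5-fold of that of NM_000926. Of these, 145 (6.71%) are listed at 0 in R5020. In the opposite direction, from R5020 to EtOH, it was 151 of 2076 (7.27%). Whether the PR-B transcript was lost or its reads were assigned to the other transcript was not tested. The shorter transcript alone was 1.38-fold lower in R5020 than in EtOH as a plain ratio, and the intervals did not overlap.

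*ESR1* lies on the plus strand of chromosome 6 (152011631 to 152424408). Its 4 listed transcripts have separate starts and encode the same receptor. Only the starts of NM_000125 and NM_001122741 had any FPKM. NM_000125 had 14.5 FPKM in EtOH (13.9 to 15.2) and 8.29 in R5020 (7.82 to 8.77), and was thus 1.752-fold lower as a plain ratio. NM_001122741, whose start lies further upstream, had 2.63 FPKM in EtOH (2.35 to 2.92) and 2.57 in R5020 (2.30 to 2.85). The lower level of *ESR1* was hence almost entirely that of NM_000125, and its share of the gene went from 84.7% in EtOH to 76.4% in R5020. The log2 fold changes of these starts differed by 0.71. A difference of this size or more between the highest pair of starts was found in 293 of the 687 genes with at least 2 starts of 1 FPKM or more in either library (42.6%), and one as large as that of *PGR*, 1.45, in 152 (22.1%). Unequal values at alternative starts were therefore common in these libraries.

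**Figure D2:**
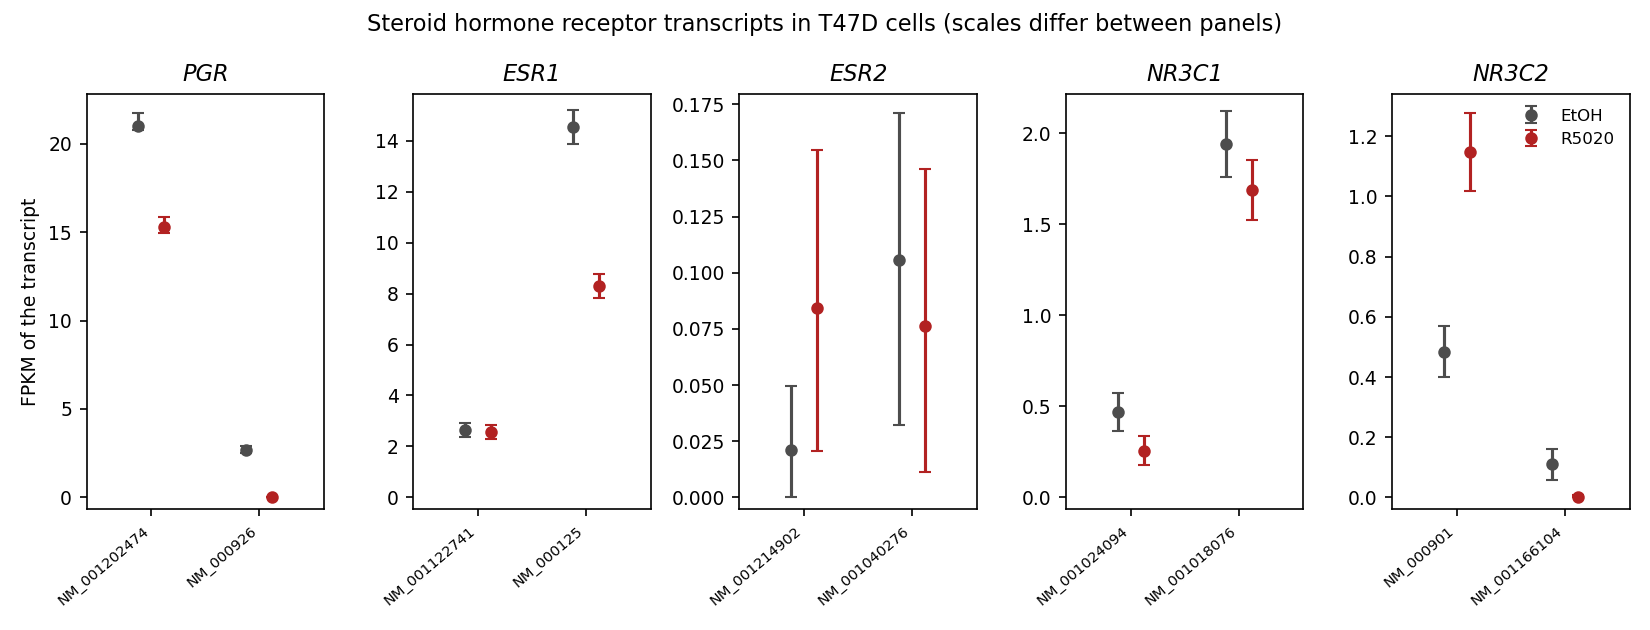
FPKM (y axis, a separate linear scale for each gene) of the 10 receptor transcripts with a value above 0, in EtOH (grey) and R5020 (red); bars are the intervals deposited by the authors for 1 library each and do not show the spread between cultures. The *ESR1* transcript NM_000125 is at 14.5 in EtOH and 8.29 in R5020, while NM_001122741 stays at 2.63 and 2.57.

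*NR3C1* lies on the minus strand of chromosome 5 (142657496 to 142815077), with 8 listed transcripts and 3 groups of starts. NM_001018076 carried most of it, with 1.94 FPKM in EtOH (1.76 to 2.12) and 1.69 in R5020 (1.53 to 1.86). NM_001024094 had 0.467 FPKM in EtOH (0.363 to 0.575) and 0.256 in R5020 (0.176 to 0.337), with intervals that do not overlap. The other 6 transcripts are listed at 0 in both libraries. The glucocorticoid receptor gene was thus expressed from the same starts with and without the progestin.

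*NR3C2* lies on the minus strand of chromosome 4 (148999915 to 149363672) and its 2 listed transcripts share 1 start. NM_000901 had 0.482 FPKM in EtOH (0.399 to 0.568) and 1.15 in R5020 (1.02 to 1.28), which is 2.38-fold higher as a plain ratio. NM_001166104 had 0.112 FPKM in EtOH (0.0591 to 0.161) and is listed at 0 in R5020. The higher level of *NR3C2* in R5020 was therefore that of NM_000901, with 265 coverage-equivalent reads in EtOH and 605 in R5020. *ESR2*, on the minus strand of chromosome 14 (64693751 to 64805268), has 5 listed transcripts. NM_001214902 had 0.0211 FPKM in EtOH and 0.0845 in R5020 and NM_001040276 had 0.106 and 0.0763, with overlapping intervals for both.

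The intervals of the authors are narrow and describe 1 library only. Of the 13579 transcripts with an FPKM of 1 or more in either library and a status of OK, 21.3% had an interval in R5020 that lay wholly below that in EtOH and 26.8% one wholly above. Of all retained transcripts, 8.34% were at least 1.5-fold lower and 11.3% at least 1.5-fold higher, on the scale with 1 added. NM_000125 of *ESR1*, with a log2 fold change of −0.74, and NM_000926 of *PGR*, with −1.88, were among the former. No receptor transcript was among the latter, and NM_000901 of *NR3C2* came closest with 0.54.

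The question of where PR binds at the receptor genes was addressed with the ChIP-seq sites. The authors called them with MACS against input DNA, with a score that is 10 times the negative log10 of the p-value. Of the 11181 sites, 5 lay within 50 kb of a member, and all 5 lay inside the gene. *PGR* and *ESR1* held 2 sites each and *NR3C1* held 1. *ESR2* had its nearest site at 88.7 kb, with a score of 83.6, and for *NR3C2* the nearest site was 1849 kb away. Having a site in this range was common. Of all symbols 45.6% had one, and among genes of 0.5 to 2 times the extent of each member the share was between 45.5% and 48.8%. The 3 of 5 members with a site are therefore near the background. Of the 4 retained members 3 had a site, against 52.7% of the retained genes.

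The scores were ordinary for this library, in which the median score was 74.5 and the highest 1965. The highest at a receptor gene was 106.5, at *ESR1* (chr6:152410981-152411526), and 86.5% of all sites had a lower one. The remaining sites scored 91.1 (chr11:100997955-100998506) and 75.5 (chr11:100999764-101000406) at *PGR*, 65.2 at *ESR1* (chr6:152129392-152129888) and 59.8 at *NR3C1* (chr5:142782491-142782940). The site at *NR3C1* was among the weakest, with only 18.1% of sites below it. With sites of a score of at least 100 alone, *ESR1* was the only member with a site. The ChIP-seq data consist of 1 library of R5020-treated cells, and no vehicle-treated counterpart was analysed here, so the sites do not tell binding with hormone from binding without it.

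Of the 5 sites, 4 were close to a transcript start. At *PGR*, the site with a score of 75.5 reached from −612 to 30 bases relative to the start of the PR-A transcript and from 138 to 780 bases past the start of the PR-B transcript. In GENCODE, 605 of its 643 bases are 5′ untranslated sequence and 38 are coding, and the antisense lncRNA gene *PGR-AS1* begins inside it on the opposite strand. Whether reads were counted by strand is not given in the sources used here. The other *PGR* site began 1288 bases past the PR-A start and covered the end of the first exon, with 342 coding bases, and the start of the first intron. At *ESR1*, the site with a score of 65.2 began 578 bases past the start of NM_000125, in the last 108 coding bases of the first exon and the first intron. At *NR3C1* the site began 314 bases past the start of NM_001024094, with 165 of 450 bases in untranslated exon sequence and the rest in intron. The remaining site, with the highest score, lay in an intron of *ESR1*, with its middle 282439 bases from the start of NM_000125 towards the 3′ end.

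**Figure D3:**
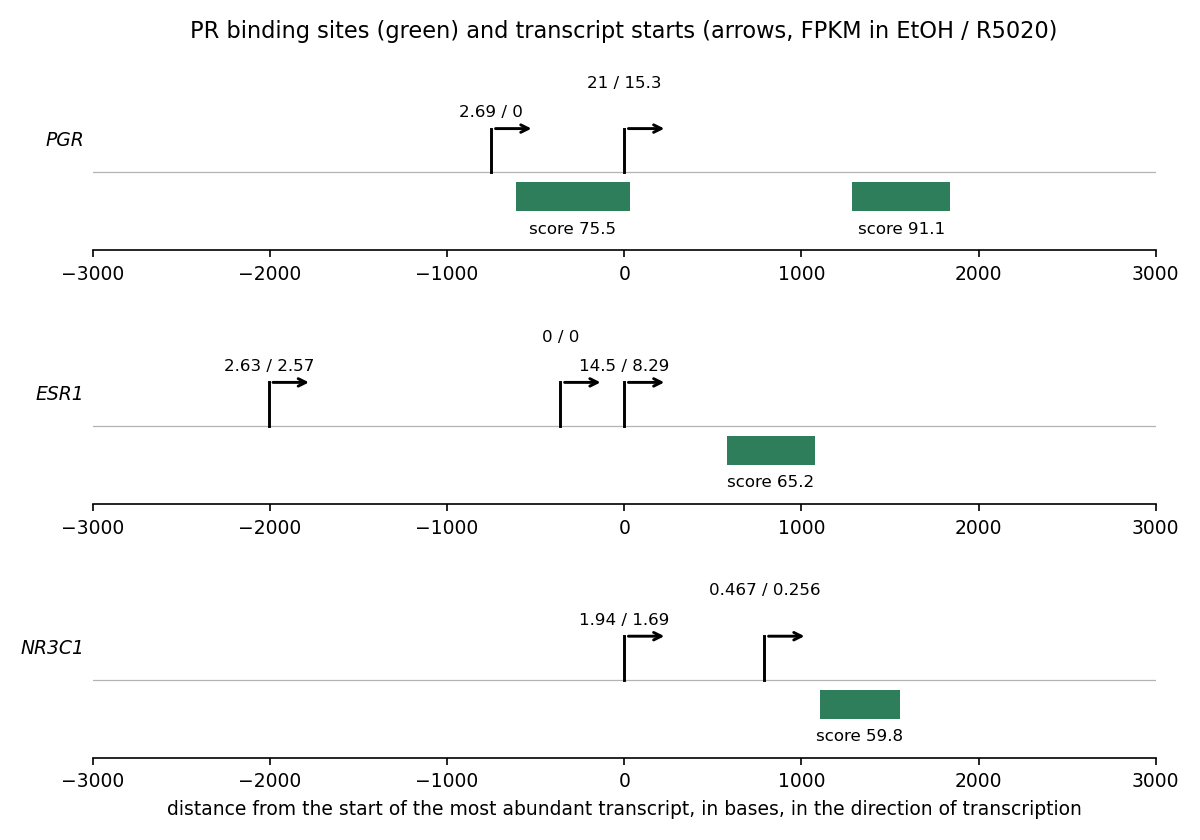
PR binding sites (green bars, with the MACS score) and transcript starts (arrows, with the FPKM in EtOH and R5020) at *PGR*, *ESR1* and *NR3C1*, placed by distance in bases from the start of the most abundant transcript in the direction of transcription. One *PGR* site reaches from −612 to 30 over the PR-A start, and the *ESR1* and *NR3C1* sites lie just downstream of starts; the distal intron site of *ESR1* is outside the range shown.

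A site within 1 kb of a start, a distance chosen after the sites were seen, was found for 3 of the 5 members, *PGR*, *ESR1* and *NR3C1*. Of the 19585 symbols whose strand was known 7.52% had one, and of the retained ones 10.3%. These symbols were not matched to the members by number of starts. As the distance was also chosen with the sites known, no excess among the members can be read from these shares. All 3 members had a lower FPKM in R5020. Of the 996 retained genes with such a site, 4.62% were at least 1.5-fold lower and 12.2% at least 1.5-fold higher. Without one, 3.93% were lower and 7.06% higher. At a distance of up to 50 kb from the gene, 4.79% of the 5803 retained genes with a site were lower and 8.94% higher, against 3.41% and 6.25% of the 5215 without. Both calls were thus somewhat more frequent with a site at either distance, and whether the sites bear on the level of a receptor gene was not tested. *NR3C2*, the only retained member with a higher FPKM in R5020 and retained through that library alone, had no site within 50 kb. With so few members, no relation between a site and the direction of change can be read.

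The *PGR* site over the PR-A start contains the first codons of PR-B. The stretch from the start codon (in capitals) to the edge of the site is shown because the PR-A transcript begins inside it, at base 8 of the 38, and thus cannot use this start codon. It is given in the direction of the gene, on the minus strand of hg19.
*PGR*, chr11:100999764-100999801: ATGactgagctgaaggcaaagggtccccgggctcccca

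The sequence of the sites was compared with the shared element of the progesterone, glucocorticoid and mineralocorticoid receptors. None of the 5 sites contained the inverted repeat of GNACA and TGTNC with a spacer of 3 bases, which reads the same on both strands, against 2.40% of all 11178 sites on the assembled chromosomes and 0.806% of windows of the same length 5 kb away. None contained the half-site TGTTCT on either strand, found in 25.2% of sites and 27.2% of windows, or the estrogen receptor element, GGTCA and TGACC with a spacer of 3 bases, found in 0.0895% and 0.121%. Other motifs searched did occur. TGTTTAC was present in the *NR3C1* site only, against 4.07% of all sites and 5.18% of windows. AGATAA was present in the *NR3C1* site and the *PGR* site over the PR-A start, against 11.9% and 19.8%. The best match to the 15-base palindrome, AGAACA and TGTTCT with a spacer of 3 bases, is shown for each site in capitals, with 7 bases on each side, on the plus strand, because it allows the sites to be compared with one another.
*PGR* first exon and intron, chr11:100998405-100998433: tccgcttTGTACAGGATGCACTccagggt
*PGR* over the PR-A start, chr11:101000049-101000077: gagcgcaAGAAAAAGTAGTAATtgttagg
*ESR1* first intron, chr6:152129705-152129733: gggcagcTGAAAAAAACGTACTctccacc
*ESR1* distal intron, chr6:152411233-152411261: catacaaCAAACATGGTGTTCAtcggacg
*NR3C1*, chr5:142782525-142782553: ccgtccgAGGTCAGGTTCCTCCccctcgg

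Of the 12 fixed letters of the palindrome, the distal *ESR1* site matched 9, both *PGR* sites and the first *ESR1* site matched 8 and the *NR3C1* site matched 7. A match of 9 or more was present in 21.3% of all sites and 21.5% of the windows, one of 8 or more in 70.2% and 76.9% and one of 7 or more in 98.2% and 98.9%. Matches of this quality were therefore about as frequent in neighbouring sequence. The match in the distal *ESR1* site lay 6 bases from the middle of the site and holds the letters TGTTC of the half-site.

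The *ESR1* sites also differed in base composition. The distal site was 46.5% G and C, the first-intron site 67.2%, both *PGR* sites 74.6% and 59.1%, and the *NR3C1* site 66.4%. The median was 56.7% over all sites and 48.7% over the windows. A stretch of 300 bases of each *ESR1* site are given on the plus strand, with the best match in capitals, to show this contrast within 1 gene. The stretch of the first begins with the last bases of the first exon.
*ESR1* end of the first exon and first intron, chr6:152129490-152129789: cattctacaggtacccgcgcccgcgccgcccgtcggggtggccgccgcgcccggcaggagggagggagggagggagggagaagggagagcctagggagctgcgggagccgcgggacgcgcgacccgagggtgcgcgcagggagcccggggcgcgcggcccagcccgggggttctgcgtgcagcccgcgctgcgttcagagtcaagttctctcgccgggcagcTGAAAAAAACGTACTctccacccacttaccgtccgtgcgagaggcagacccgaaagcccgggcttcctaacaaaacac
*ESR1* distal intron, chr6:152411103-152411402: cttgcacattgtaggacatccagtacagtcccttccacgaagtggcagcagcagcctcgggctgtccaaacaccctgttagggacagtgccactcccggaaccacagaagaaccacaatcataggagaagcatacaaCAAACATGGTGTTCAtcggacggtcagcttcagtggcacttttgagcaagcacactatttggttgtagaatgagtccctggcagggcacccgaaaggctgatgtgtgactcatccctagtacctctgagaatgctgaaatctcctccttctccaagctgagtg

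The other genes of receptor signalling were described by lists. The lists were chosen with earlier results of these data known, so an excess in a list is no independent support. All 16 chaperones and co-chaperones of the receptors were expressed, with 6.02 to 366 FPKM. Of these, 1 was at least 1.5-fold higher and none was at least 1.5-fold lower, which is near the 7.67% and 4.14% of all retained genes, and the median log2 fold change was −0.01. The higher gene was *FKBP5*, an immunophilin that lowers the hormone affinity of the glucocorticoid receptor and is induced by corticoids and progestins, with 15.9 FPKM in EtOH and 86.6 in R5020. *HSP90AA1* and *HSP90AB1*, the core chaperones, had log2 fold changes of 0.08 and −0.06, and *FKBP4*, the co-chaperone that favours hormone binding, one of −0.05. *HSPA8*, the most abundant member, stood at 366 FPKM in EtOH and 259 in R5020 (−0.49).

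None of the 14 retained coactivators passed 1.5-fold, against 11.8% of all retained genes in either direction, and their median was 0.03. With 0.1 added in place of 1, or with the highest transcript standing for the gene, 1 coactivator was higher. *NCOA3*, a p160 coactivator amplified in breast cancer, had 11.4 FPKM in EtOH and 16.3 in R5020 (0.48), and *MED1*, the Mediator subunit that contacts nuclear receptors, had 12.8 and 13.3 (0.05). Of the 10 corepressors 1 was higher and 1 lower, against the same 7.67% and 4.14%. *LCOR*, a ligand-dependent corepressor, had 4.90 FPKM in EtOH and 15.5 in R5020 (1.48). The median of the corepressors was −0.05.

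Among related receptors, *ESRRA*, an orphan receptor similar to the estrogen receptors, had 3.68 FPKM in EtOH and 7.63 in R5020 (0.88), and *ESRRB* and *ESRRG* are listed at 0 in both libraries. Of the 8 genes for membrane receptors and binding proteins of progesterone or estrogen, 5 were retained, with a median of 0.09. Of these, none was at least 1.5-fold higher and 1 was lower, against 7.67% and 4.14% of all retained genes. The lower gene was *PAQR6*, which encodes a membrane progestin receptor, with 7.94 FPKM in EtOH and 4.21 in R5020 (−0.78). The count of lower genes was 2 with 0.1 added in place of 1, and 0 at a threshold of 2-fold. *PGRMC1* and *PGRMC2*, which encode progesterone receptor membrane components, had log2 fold changes of 0.09 and 0.30. *GPER*, a membrane estrogen receptor gene, remained below 0.3 FPKM.

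Of the 6 luminal transcription factors that share sites with the receptors, 4 were at least 1.5-fold lower and none higher, against 4.14% and 7.67% of all retained genes, with a median of −0.87. *FOXA1*, a pioneer factor that opens chromatin for the estrogen receptor, had 64.3 FPKM in EtOH and 14.7 in R5020 (−2.05), and *GATA3*, required for *ESR1* expression in luminal cells, had 253 and 126. *TFAP2A* (−0.89) and *SPDEF* (−0.86) were the others. The factors were thus lower in the same library as *ESR1* and *PGR*, and whether these values are connected was not tested.

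The targets of the receptors differed between lists. Of 10 targets shared by the progesterone and glucocorticoid receptors, 7 were at least 1.5-fold higher and none lower, against 7.67% and 4.14% of all retained genes, with a median of 1.66. The list was made of known targets, with earlier results of these data known, so this excess is no test of the receptors. *SGK1*, *ZBTB16* and *PER1* reached an FPKM of 1 only in R5020, where they are higher. The higher genes included *TSC22D3*, which encodes the glucocorticoid-induced leucine zipper, with 3.52 FPKM in EtOH and 18.7 in R5020 (2.12). For a single *TSC22D3* variant the paper prints a higher FPKM in each condition than this sum, so printed and deposited values differ. Also higher were *SGK1*, a kinase induced by mineralocorticoids and glucocorticoids, with 0.0388 and 3.28 (2.04), and *CEBPD*, with 10.2 and 66.9 (2.60). *ZBTB16* is listed at 0 in EtOH and had 1.63 FPKM in R5020. *DDIT4*, *PER1* and *KLF9* did not pass, with log2 fold changes of −0.29, 0.47 and 0.38. Of the 10 genes 5 had a PR site within 50 kb, against 52.7% of all retained genes. These were *DDIT4*, *PER1* and *KLF9* and, of the higher genes, only *FKBP5* and *ZBTB16*. The paper likewise reports no PR site in that range of *TSC22D3*.

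Of 11 retained targets of the estrogen receptor, 4 were higher and 2 lower, against 7.67% and 4.14% of all retained genes, with a median of 0.11. *CCND1*, which encodes cyclin D1, had 22.2 FPKM in EtOH and 120 in R5020 (2.38), and *GREB1*, an estrogen receptor cofactor, had 8.44 and 39.9 (2.12). *CXCL12* (1.14) and *SIAH2* (0.94) were also higher. *TFF1*, the pS2 gene used as a marker of estrogen action, had 1.88 FPKM in EtOH and 0.442 in R5020, and *RARA* had a log2 fold change of −0.71. *TFF1* reached an FPKM of 1 only in EtOH, where it is higher. Of the 11 genes 7 had a PR site within 50 kb, against 52.7% of all retained genes. Among them were the higher *CCND1*, *GREB1* and *CXCL12* and the lower *RARA*. The paper also names *GREB1* among genes with a progestin-regulated transcript variant. The list thus did not share a direction in these libraries while *ESR1* was lower, and estrogen receptor activity was not tested.

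**Figure D4:**
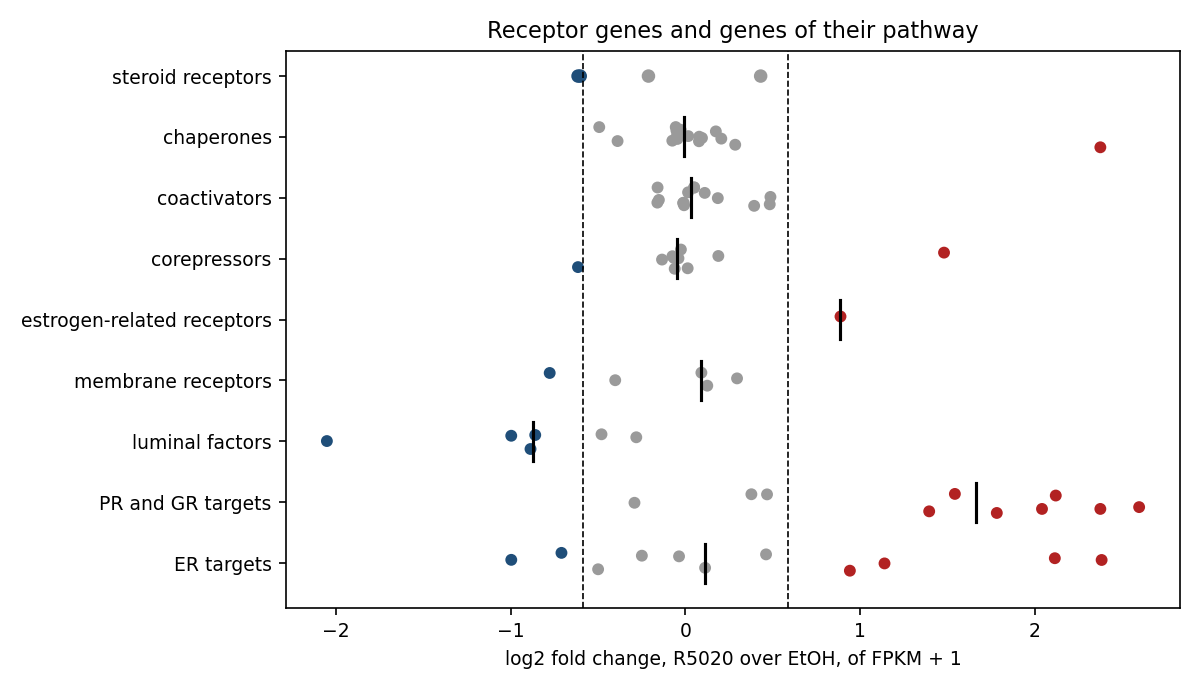
Log2 fold change (x axis, R5020 over EtOH, of FPKM + 1) of the retained genes of each list, with each point 1 gene, blue or red when at least 1.5-fold lower or higher (dashed lines) and black bars the median of a list. The targets shared by PR and GR lie mostly to the right, with a median of 1.66, the luminal factors to the left, with −0.87, and chaperones and coactivators near 0.

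Genes with the most similar pair of values were sought over the 2 libraries, by the distance between log2(FPKM + 1) values. The nearest to *PGR* was *SLC46A3*, with 22.9 FPKM in EtOH and 15.6 in R5020, and the nearest to *ESR1* was *COX8A*, with 17.5 and 10.7. *NR3C1* was nearest to *ZNF620* and *ESR2* to *TLR3*. Only 3 genes lay within 0.1 log2 units of *PGR* and 8 of *ESR1*, whereas 114 lay that close to *NR3C1* and 614 to *ESR2*. With 2 libraries, such likeness says only that the levels are alike.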

How the data were processed

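Per the methods of the study, the authors aligned 50-bp paired-end RNA-seq reads to hg19 with TopHat and estimated with Cufflinks the FPKM that they deposited for each RefSeq transcript, with an interval, a coverage signal and a length. They also called changed genes between these libraries with Cuffdiff, and those calls were not used or compared here. Having 1 library per condition and no read counts, no test was run for this report. For ChIP-seq they mapped reads with Bowtie 1.1.2, per the submitters' processing notes, and called sites with MACS. They deposited a score for each site, 10 times the negative log10 of the p-value, of 50 or more. The input library was not analysed here.

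Transcripts were joined by identifier and summed by gene symbol. Genes with FPKM of 1 or more in either library were retained, and a change was called at 1.5-fold on the log2(FPKM + 1) scale. Sites were tied to genes by the nearest edge. Coordinates were made 1-based, and 3 sites outside the assembled chromosomes were left out of the sequence search. Features came from GENCODE release 44 and sequences from GRCh37, the assembly of hg19. Motifs were searched on both strands. The receptor genes, the lists and the rule for named genes (the members, list genes past the threshold or otherwise the 2 with the highest FPKM, and the gene nearest each member) were chosen with earlier results of these data known. *HSP90AB1*, *FKBP4*, *GPER*, *ESRRB*, *ESRRG*, *DDIT4*, *PER1* and *KLF9* fall outside that rule and were named after their values were seen. A corepressor and the gene nearest *NR3C2*, which the rule would name, are not reported here. The calls and the distance rule were tested on simulated data with changes well beyond 1.5-fold, so calls close to the threshold were not tested. Python 3.11.15, pandas 2.3.3, numpy 2.4.6, pysam 0.24.0 and matplotlib 3.10.9 were used. The alternatives were a pseudocount of 0.1, no filter on FPKM, a 2-fold threshold, rescaled FPKM, the highest transcript, transcripts with status OK, other distances and sites with a score of at least 100.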

Additional observations from a re-analysis of the deposited data

How the results depend on the processing

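With 1 library per condition no replicate could be left out, and no paired analysis was possible because each condition has a single library. With a pseudocount of 0.1 the log2 fold changes were −0.63 for *PGR*, −0.66 for *ESR1*, 0.20 for *ESR2*, −0.30 for *NR3C1* and 0.85 for *NR3C2*, and *NR3C2* became the 1 member at least 1.5-fold higher. Rescaling FPKM to a median log2 ratio of 0 gave −0.61, −0.63, −0.22 and 0.42 for *PGR*, *ESR1*, *NR3C1* and *NR3C2*. Taking only the highest transcript of a gene they were −0.44, −0.74, −0.13 and 0.54, *ESR2* turned to −0.03, and 1 member was at least 1.5-fold lower. With transcripts of status OK only, *PGR* was left with the PR-B transcript and stood at −1.88. At a threshold of 2-fold, 0 members were lower, and of the list genes 1 was lower in place of 8. With sites of a score of at least 100, 1 member had a PR site within 50 kb in place of 3, and within 100 kb 4 members had a site of any score. Leaving out the FPKM filter changed none of the counts of receptor or list genes. *PGR*, *ESR1*, *NR3C1* and *NR3C2* kept their direction under the pseudocount, rescaling, highest-transcript and status alternatives. The low depth of *ESR2*, at 28 and 37 reads, allows no direction.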

Other observations

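Across all PR binding sites, the shared steroid receptor element, GNACA and TGTNC with a spacer of 3 bases, was more frequent at higher scores. It was present in 1.32% of the 4562 sites with a score below 70, in 2.15% of the 4793 sites from 70 to 100, in 4.67% of the 1584 sites from 100 to 200 and in 12.97% of the 239 sites of 200 or more. The receptor gene sites belong to the lower of these classes, with 2 below 70, 2 from 70 to 100 and 1 above 100. The half-site TGTTCT was present in 45.2% of the sites with a score of 200 or more and in 24.8% of those below 70.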
